A study of Mus musculus with 24 samples.

Results

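The H3K27ac peaks of forelimb cartilage alone are the regions that carried the acetylated histone mark H3K27ac in the authors' combined forelimb list and met no peak of their combined Meckel's cartilage list, not even by 1 bp. They were selected on these lists, on the autosomes and X, and numbered 8639 of the 39914 forelimb peaks (21.6%). The other 31275 forelimb peaks met a Meckel peak and are called shared. In the other direction, 11146 of 47549 Meckel peaks met no forelimb peak.

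H3K27ac is an acetyl group on lysine of histone H3 that marks active promoters and active distal enhancers, the stretches of DNA that set when and where a gene is on. Limb and jaw cartilage share one chondrocyte programme led by Sox9, but they come from different tissues: limb cartilage from lateral plate mesoderm, whose position is set by Hox and T-box transcription factors, and Meckel's cartilage from cranial neural crest, which lacks Hox expression in the jaw. Active enhancers are usually also open, and ATAC-seq measures that openness because its transposase cuts where DNA is accessible.

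The study mapped candidate enhancers in both cartilages of the mouse. The groups used here were forelimb cartilage (FL) of E14.5 embryos, dissected free of the surrounding connective tissue and digested to cells, Meckel's cartilage (MC) bars of E14.5 embryos, and mandibular processes of E12.5 embryos. All were wild type, of strain C57BL/6. H3K27ac was profiled by CUT&Tag, in which an antibody brings the transposase to the mark, in 3 FL and 3 MC libraries. ATAC-seq was made from 3 FL libraries, 3 MC libraries and 2 E12.5 mandible libraries. The labels do not say whether replicates were separate animals or pools, so a p-value here measures only the spread between these libraries, which may be technical. For the E12.5 libraries GEO's description field disagrees with the titles and protocols on stage and assay, and titles and protocols were followed. These are bulk tissues: fewer cells carrying a mark and less mark per cell cannot be told apart.

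The FL label matched cartilage as far as peaks can show. Of 30 cartilage genes fixed as a list, 29 had an FL peak within 1 kb of a gene end, against 29 in MC, and the exception in both was Epyc. Sox9, Col2a1, Acan, Matn1, Col9a1, Col11a2, Hapln1 and Comp all had one in FL and in MC. None of the 30 genes had a forelimb-alone peak at a gene end. Of 20 skeletal muscle genes, 8 had an FL peak at an end against 9 in MC, of 18 endothelial genes 15 against 14, of 16 blood genes 8 against 9, of 18 epithelial genes 9 against 9, and of 18 neuron and Schwann cell genes 5 against 11. Lists called on single H3K27ac libraries did not follow the combined lists. A peak of a single FL list lay in 13, 12.8 and 12.7% of the 8639 forelimb-alone peaks, against 14.4, 16.6 and 14.9% for the single MC lists. The MC values all lay above the FL values, the opposite of the labels. Only 35 forelimb-alone peaks had a peak in all 3 single FL lists, and 3623 (41.9%) had none in any of the 6. The combined lists are therefore the only source of the membership, and they have no replicates.

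Promoter sequences show which kind of DNA the members held where they lay on a gene start. RefSeq windows of 300 bases (250 before the start and 50 after it, build GRCm38.p6, which has the coordinates of mm10) were placed against the peaks. Of 32619 windows, 804 lay in a forelimb-alone peak, and 6 of these had an ATAC peak in all 3 FL lists and in no MC list; no window had the opposite pattern. Those 6 are printed first, then Hoxa9 as a CpG-poor window inside the same peak as Hoxa10, and Tbx18 as a window that had an ATAC peak in all 6 lists. The windows were Hoxd10 (chr2:74691641-74691940, plus strand), Hoxa3 (chr6:52213018-52213317, minus), Hoxa10 (chr6:52234890-52235189, minus), Zbtb8a (chr4:129377979-129378278, minus), Rsad2 (chr12:26456403-26456702, minus), Trpm3 (chr19:22447958-22448257, plus), Hoxa9 (chr6:52227321-52227620, minus) and Tbx18 (chr9:87731211-87731510, minus). Capitals mark CpG dinucleotides, and every sequence runs 5′ to 3′ on the gene's strand.
Hoxd10: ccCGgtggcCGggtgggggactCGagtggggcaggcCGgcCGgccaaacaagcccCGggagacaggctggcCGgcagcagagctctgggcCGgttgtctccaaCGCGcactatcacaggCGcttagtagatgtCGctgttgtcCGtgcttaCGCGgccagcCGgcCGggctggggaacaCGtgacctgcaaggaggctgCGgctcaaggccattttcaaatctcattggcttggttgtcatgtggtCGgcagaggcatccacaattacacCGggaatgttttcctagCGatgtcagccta
Hoxa3: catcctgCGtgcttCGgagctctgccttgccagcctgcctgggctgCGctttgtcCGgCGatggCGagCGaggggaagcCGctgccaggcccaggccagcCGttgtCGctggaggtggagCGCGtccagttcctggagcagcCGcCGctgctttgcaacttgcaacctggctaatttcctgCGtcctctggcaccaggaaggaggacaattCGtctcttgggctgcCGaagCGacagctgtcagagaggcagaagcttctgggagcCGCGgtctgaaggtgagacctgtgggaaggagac
Hoxa10: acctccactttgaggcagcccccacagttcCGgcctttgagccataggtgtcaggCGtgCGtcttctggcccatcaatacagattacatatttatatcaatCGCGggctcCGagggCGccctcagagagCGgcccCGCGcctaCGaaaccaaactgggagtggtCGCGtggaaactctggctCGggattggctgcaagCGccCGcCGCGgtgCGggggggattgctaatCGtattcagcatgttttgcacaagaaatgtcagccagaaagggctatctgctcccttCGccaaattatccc
Zbtb8a: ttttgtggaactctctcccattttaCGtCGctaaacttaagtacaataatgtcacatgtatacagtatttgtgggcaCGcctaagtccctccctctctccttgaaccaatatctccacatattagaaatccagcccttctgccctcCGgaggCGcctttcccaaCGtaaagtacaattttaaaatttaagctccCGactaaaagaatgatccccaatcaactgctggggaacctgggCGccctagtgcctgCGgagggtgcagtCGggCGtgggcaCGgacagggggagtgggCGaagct
Rsad2: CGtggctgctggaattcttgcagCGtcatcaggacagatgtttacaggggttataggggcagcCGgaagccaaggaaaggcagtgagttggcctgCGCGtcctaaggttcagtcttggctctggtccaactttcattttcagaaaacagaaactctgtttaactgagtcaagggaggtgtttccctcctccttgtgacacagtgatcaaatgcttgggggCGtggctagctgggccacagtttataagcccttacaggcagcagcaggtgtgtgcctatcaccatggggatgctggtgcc
Trpm3: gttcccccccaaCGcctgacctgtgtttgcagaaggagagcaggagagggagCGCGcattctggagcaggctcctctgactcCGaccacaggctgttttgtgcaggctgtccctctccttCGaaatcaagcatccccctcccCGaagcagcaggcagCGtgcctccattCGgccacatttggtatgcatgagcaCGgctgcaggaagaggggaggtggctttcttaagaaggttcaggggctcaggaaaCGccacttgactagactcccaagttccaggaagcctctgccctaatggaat
Hoxa9: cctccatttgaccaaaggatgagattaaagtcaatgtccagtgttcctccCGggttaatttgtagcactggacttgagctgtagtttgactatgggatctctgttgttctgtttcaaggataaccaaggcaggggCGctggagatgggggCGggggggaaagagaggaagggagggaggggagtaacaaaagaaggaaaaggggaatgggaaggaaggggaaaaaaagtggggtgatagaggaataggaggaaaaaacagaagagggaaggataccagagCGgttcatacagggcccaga
Tbx18: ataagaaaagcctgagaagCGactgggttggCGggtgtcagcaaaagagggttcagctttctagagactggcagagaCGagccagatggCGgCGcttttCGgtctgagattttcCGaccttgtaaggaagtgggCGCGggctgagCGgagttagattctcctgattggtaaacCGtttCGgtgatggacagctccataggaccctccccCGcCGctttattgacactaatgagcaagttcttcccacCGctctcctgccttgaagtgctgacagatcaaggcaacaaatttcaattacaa
Hoxd10, Hoxa3 and Hoxa10, which encode homeodomain proteins of positional identity, held 22, 20 and 21 CpG. Zbtb8a, a zinc finger gene, held 13, Trpm3, an ion channel gene, 10, and Rsad2, an antiviral enzyme gene, 6. The Hoxa9 window held 4 and the Tbx18 window 15.

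The largest members lay on limb transcription factor genes. A 72.3 kb peak over Tbx5 (chr5:119819755-119892102), the T-box gene needed to form a forelimb, had the highest total signal of all members, 592773 on the authors' scale. A 52.6 kb peak over Tbx15 (chr3:99233221-99285845), a T-box gene of limb girdle and trunk development, followed with 419438. A 38.7 kb peak (chr6:52215757-52254485) ran over Hoxa7, Hoxa9, Hoxa10 and Hoxa11, whose genes of groups 9 to 11 take part in patterning the upper and middle limb, with 373674. The next members by width held other kinds of gene and were narrower: Itga7, a laminin receptor subunit, 27.2 kb, and Iqsec1, an exchange factor for Arf GTPases, 26.9 kb. The rest of the 10 widest lay over Ecd and Nudt13 (24 kb), over Hps5 and Saa2 (23 kb), over Mib1 and nearest to Susd1 (21.3 kb each) and nearest to En1 (20.8 kb). A member over Igha, an immunoglobulin heavy chain segment (chr12:113250187-113268925), was among the 10 of highest signal with 152509, as was a 20.6 kb member in Tbck with 130246. The Itga7 member held 597, 1879 and 2040 bp of ATAC peaks in FL, against 4565, 1696 and 1646 bp in MC, so the groups overlapped. The Tbck member held none in any of the 6 lists, and the Igha member held 0 bp in every FL list, against 0, 1444 and 671 bp in MC. These peaks were chosen by width and signal, so the values are a description.

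ATAC peaks inside those 3 peaks covered more bases in FL than in MC libraries. Inside the Tbx5 peak they covered 1582, 3160 and 4256 bp in the FL libraries, against 1296, 0 and 0 bp in the MC libraries. Every FL value exceeded every MC value, with 1 MC library close to the lowest FL library. Inside the Tbx15 peak they covered 4375, 4901 and 3445 bp in FL, against 2219, 2170 and 2273 bp in MC. This peak was open in all 6 libraries and more widely so in FL. Inside the Hoxa peak they covered 6093, 9828 and 7507 bp in FL, against 0, 572 and 1440 bp in MC. The groups were far apart there. In a fit of all regions with limma, on log2(kb + 0.1) after scaling every list to the same total, the differences FL minus MC were 3.57 ± 1.14 for the Tbx5 peak (SE, adjusted p = 0.446), 0.88 ± 0.246 for the Tbx15 peak (adjusted p = 0.328) and 4.04 ± 1.01 for the Hoxa peak (adjusted p = 0.226). None passed the threshold of an adjusted p of 0.05. Where MC lists stood at 0, in the Tbx5 and Hoxa peaks, the difference depends on the 0.1 kb added. In the 2 E12.5 mandible lists ATAC peaks covered 6.24 and 1.6 kb of the Hoxa peak. Summed over all members of the gene, they covered 9.97 and 0.532 kb for Tbx5, against 2.54, 4.95 and 5.13 kb in FL. For Tbx15 that sum was 3.43 and 5.2 kb, against 4.74, 5.35 and 4.62 kb in FL.

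**Figure D1:**
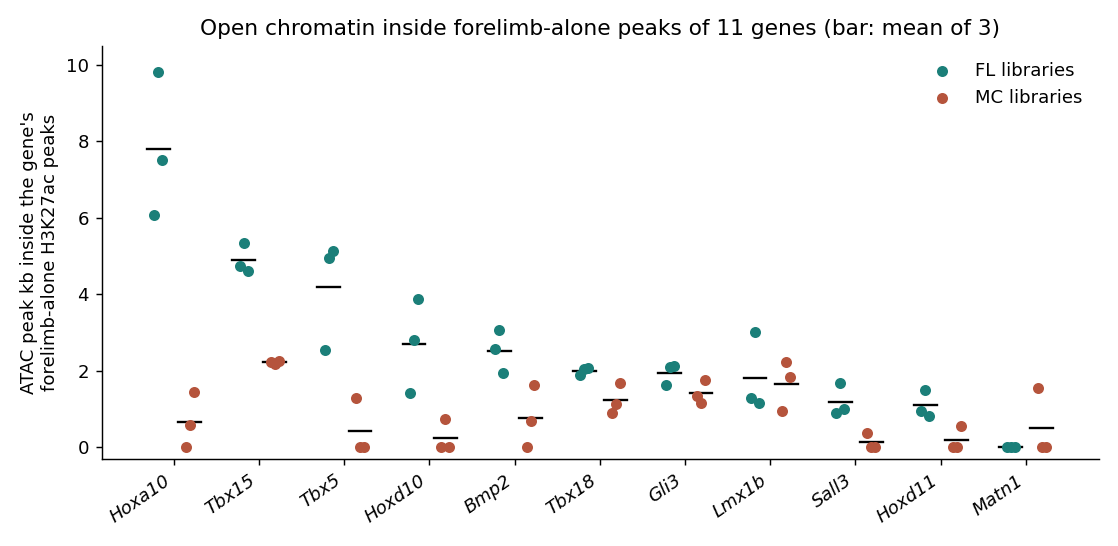
Kilobases of ATAC-seq peaks inside the forelimb-alone H3K27ac peaks of each of 11 genes, FL libraries left and MC libraries right, 1 point per library with the mean of 3 as a bar. The 11 genes were picked for display. Others with members, such as Hoxc4 and Fgf9, where FL and MC libraries overlapped, are not drawn. Hoxa10 stands for the 38.7 kb peak over Hoxa7 to Hoxa11; FL libraries lie at 6.09 to 9.83 kb there against 0 to 1.44 kb in MC, whereas the 8 Matn1 peaks held 0 kb in every FL library.

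The Hoxa peak also held Mir196b, a microRNA gene between Hoxa9 and Hoxa10 whose products are known to repress Hox messages. It was 1 of 19 of 1005 annotated miRNA hairpins that lay in a member. Its main product is shown because it belongs to the same Hox interval (chr6:52230129-52230150, minus strand, RefSeq, GRCm38.p6), with the seed, bases 2 to 8, in capitals.
mmu-miR-196b-5p: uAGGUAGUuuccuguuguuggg

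The FL H3K27ac assigned to limb Hox genes was all forelimb-alone. Of 20 such genes, 4 were the nearest gene of any FL peak, and all 64.3 kb of FL peaks assigned to them were forelimb-alone, with 0 kb of MC peaks. Beside the Hoxa peak these were a 15 kb peak at Hoxd10 (chr2:74686283-74701258), a 4.39 kb peak at Hoxd11 (chr2:74680608-74684995) and a 6.24 kb peak 51.7 kb from Hoxc4 (chr15:103085473-103091711). A further peak (chr6:52207867-52214701) lay next to the Hoxa peak, which began at position 52215757. It is named after Hoxa3 because it held a RefSeq window of that gene with its start at position 52213067. Hoxa3 lay outside the list. Hoxa6 also had a promoter window in a member. Of 24 Hox promoter windows in the RefSeq table, 10 lay in a forelimb-alone peak, 14 in no peak, 0 in a shared peak and 0 in a Meckel-alone peak. Inside the Hoxd10 peak ATAC peaks covered 1405, 2805 and 3867 bp in FL, against 0, 736 and 0 bp in MC. Inside the Hoxd11 peak they covered 962, 1509 and 814 bp in FL, against 0, 0 and 563 bp in MC. Both sets of FL values lay above all MC values, with limma adjusted p of 0.267 and 0.396. The 2 E12.5 mandible lists had 2.04 and 0.812 kb in the Hoxd10 peak and 1.78 and 0 kb in the Hoxd11 peak. The Hoxc4 peak held 756, 1865 and 3196 bp in FL, against 1246, 723 and 1171 bp in MC, and there the groups overlapped.

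Of 30 limb patterning genes, 20 had at least 1 member, against 21.2% of all 21631 protein-coding genes. Of these 30 genes 24 had any FL peak, and over the genome 36.8% of the genes with an FL peak had a member. Members made up 35.7% of the FL peak kb of this list, against 12.6% over all genes. The list was chosen with earlier results of these data known and so gives no independent evidence of this. Tbx5 had 4 members over 99.9 kb and Tbx15 had 6 over 87.6 kb. Sall3, a spalt zinc finger gene, had 5 members over 35.3 kb, and Tbx18, a T-box gene of paraxial and limb mesenchyme, had 3 over 19.2 kb. The members were 100.0% of the FL peak kb assigned to each of these 4 genes. Those of Sall3 all lay outside the gene, 21.1 to 473 kb away. They included total signals of 25845 and 25828, near the lowest of the FL list, 25799. The 4.3 kb Tbx18 member lay at the gene, and its others lay 194 and 242 kb away. The MC list gave Tbx5 and Sall3 0 kb, Tbx15 4.04 kb and Tbx18 4.83 kb.

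Most of the other limb genes named held more shared than member kb. Tbx3, a T-box gene of posterior limb and other organs, had 5 members over 35.6 kb of 114 kb. Gli3, the hedgehog pathway factor of digit patterning, had 5 over 34 kb of 275 kb. Lmx1b, which gives the limb its dorsal identity, had 4 over 25.2 kb of 93.3 kb, and Tbx4, the T-box gene of the hindlimb, 2 over 16.4 kb of 46.1 kb. A 20.8 kb member was nearest to En1, a gene of ventral limb ectoderm, but 250 kb away from it. Shh, the ligand of the posterior limb margin, was an exception, with 2 over 15.1 kb of 20.4 kb, 1 of them 361 kb from the gene. Pitx1, also on this list, was another, with 2 over 13.6 kb of 19.4 kb.

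Openness inside these members was uneven. Of the 54 members assigned to the limb patterning and Hox lists, 26 held no ATAC base in any of the 6 FL and MC lists. Among them were all 5 of Tbx3 and both of Tbx4. Over all members 58.1% had no ATAC peak in these lists. The filter on mean cover (0.1 kb over the 6 lists) passed 24. In 8 of the 24 every FL list lay above every MC list, and in 0 every MC list lay above every FL list, where 6.75% and 6.69% of the 28674 regions tested in all had those orders. The filter can pass a member through the tissue where it is high, so the 8 support nothing by themselves. By limma 1 of the 24 passed the adjusted threshold, where 2.32% of all regions tested were called higher in FL and 0.53% higher in MC. An unadjusted p under 0.05 was found in 6 of the 24. Over all 28674 regions, 1384 were higher in FL and 923 higher in MC at that level. The limit of the filter applies to the 6 as well, so nothing is read from them. The 1 call was a 7.52 kb member inside Tbx15 (chr3:99287375-99294894), with 364, 449 and 1172 bp in FL, against 0 bp in every MC list (adjusted p = 0.0409). This member passed the filter through the FL lists, so nothing is read from the call. Among members the fit made 0 calls with limma's trend option and 0 with the replicate number as a block. For Tbx18, summed over its members, ATAC peaks covered 1.89, 2.04 and 2.07 kb in FL, against 0.91, 1.14 and 1.68 kb in MC. For Gli3 they covered 1.64, 2.11 and 2.12 kb in FL, against 1.35, 1.15 and 1.75 kb in MC. The FL libraries exceeded MC in Tbx18 and overlapped it in Gli3.

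**Figure D2:**
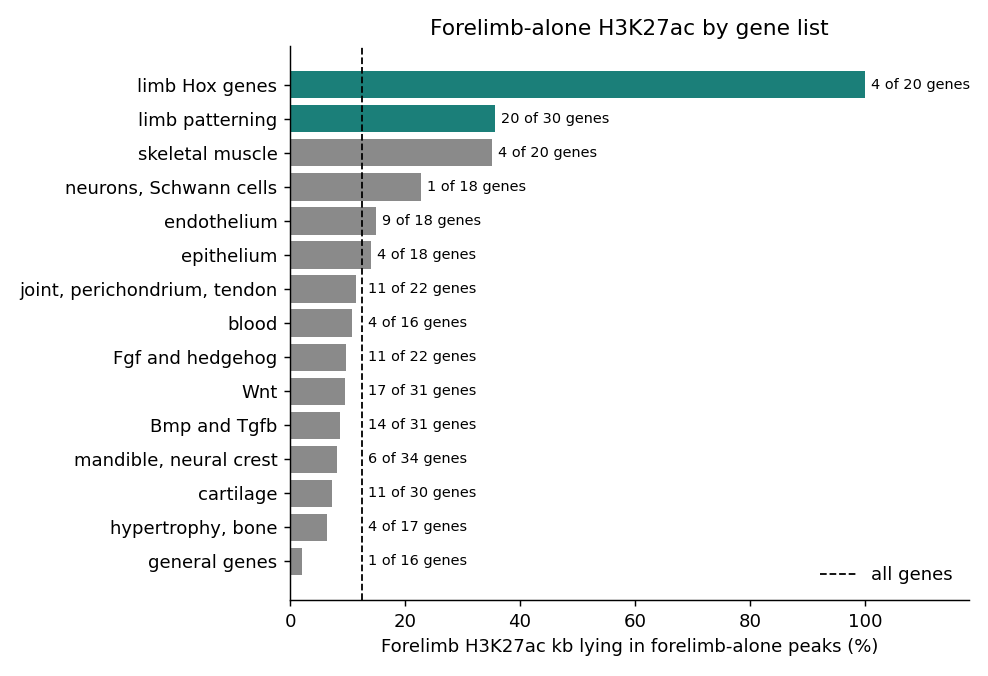
Share of the forelimb H3K27ac peak kb assigned to each gene list that lay in forelimb-alone peaks, with the number of genes holding a member beside each bar and the value over all genes, 12.6%, as a dashed line. Limb Hox genes (100.0%) and limb patterning genes (35.7%) are drawn in green, and cartilage genes reached 7.34%.

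Members at genes of the cartilage programme lay mostly beside shared peaks. Of 30 cartilage genes, 11 had a member (36.7%, against 21.2% of all genes), and members were 7.34% of the list's FL peak kb, against 12.6% over all genes. Of the 30, 27 had any FL peak, and 36.8% of all genes with an FL peak had a member. Sox5 and Sox6, partners of Sox9, had 4 over 27 kb of 396 kb and 5 over 26.2 kb of 304 kb. Trps1, a zinc finger regulator of chondrocytes, had 3 over 21.4 kb, and Hapln1, the link protein of aggrecan, 3 over 14.1 kb of 36.8 kb. Sox9 had 1, of 5.05 kb, in 121 kb. Matn1, a cartilage matrix protein, was the exception with 8 members over 53.1 kb of 151 kb, all of them 22.5 kb or more from the gene. They held 0 kb of ATAC peaks in all 3 FL libraries, against 1.55, 0 and 0 kb in MC. In the 2 E12.5 mandible lists they held 10.7 and 1.22 kb. The gene with the most members of the list thus had none that was open in an FL library.

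The signalling lists are given beside 21.2% of all genes with a member and 12.6% of all FL peak kb in members. Only genes with an FL peak can hold a member, and 36.8% of those had one over the genome. Such genes were 30 of the Bmp and Tgfb, 27 of the Wnt and 19 of the Fgf and hedgehog genes. Of 31 Bmp and Tgfb genes, 14 had a member (45.2%, with 8.75% of kb), of 31 Wnt genes 17 (54.8%, with 9.59% of kb) and of 22 Fgf and hedgehog genes 11 (50.0%, with 9.72% of kb). These are descriptions and were not tested. Bmp2, a ligand that drives cartilage growth and digit formation, had 4 over 24.6 kb of 29.9 kb. One of them (chr2:133506711-133513940), 41.8 kb from the gene, held 767, 985 and 889 bp of ATAC peaks in FL, against 0 bp in every MC list (limma adjusted p = 0.00525). This member passed the filter through the FL lists, and the fit made 0 calls with limma's trend option. Another (chr2:133562756-133568260), 2.61 kb from the gene, held 1258, 2080 and 1064 bp in FL, against 0, 691 and 1629 bp in MC, and there the groups overlapped. Wnt5a, a ligand of limb outgrowth, had 3 over 16.8 kb of 35 kb, Frzb, a Wnt antagonist of cartilage, 1 of 16.1 kb in 29.3 kb, and Rspo3, a Wnt enhancer, 2 that were all of its 10.3 kb. The MC list gave Rspo3 5.36 kb, all of it Meckel-alone. Fgf9 had 4 over 30.4 kb of 63.7 kb and Fgf7 2 over 14.4 kb of 25.3 kb.

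Of 22 joint, perichondrium and tendon genes, 11 had a member (11.5% of kb). Postn, a perichondrial matrix protein, had 4 over 34 kb of 46.5 kb, and Osr2, a joint regulator, 2 that were all of its 14.9 kb. The MC list gave Osr2 13.8 kb, all of it Meckel-alone, so both tissues had peaks assigned to it at different places. Of 17 hypertrophy and bone genes 4 had a member (6.42%), led by Col1a2 with 3 over 21.1 kb. Of 34 mandible and neural crest genes 6 had one (8.18%), led by Foxc1 with 3 over 18 kb. Pitx1, which also marks the hindlimb, had 2 over 13.6 kb of 19.4 kb. The MC list gave Pitx1 24.9 kb, of which 19.3 kb was Meckel-alone.

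Markers of other cell types also held members. Of 20 skeletal muscle genes 4 had one, but these made 35.1% of the list's FL kb. They were Neb (4 over 23.9 kb), Pax7 (3 over 22.8 kb), Chrna1 (2 over 11.7 kb) and Acta1 (1 of 4.99 kb). The MC list gave Chrna1 20.7 kb and Pax7 27.9 kb, and Neb and Acta1 0 kb. Myod1, Myf5 and Myf6 had no FL peak at a gene end. ATAC peaks in the spans of the 20 genes summed to 9.52 to 14 kb in FL, against 12.1 to 18.2 kb in MC. Of 18 endothelial genes 9 had a member (15%), led by Cdh5 with 9 over 63.1 kb, and ATAC peaks in their spans summed to 28.5 to 39.2 kb in FL, against 30.7 to 35 kb in MC. Of 16 blood genes 4 had one (10.8%), of 18 epithelial genes 4 (14.1%), of 18 neuron and Schwann cell genes 1 (22.8%, all Syt1), and of 16 general genes 1 (2.12%). The part of other cell types in the members was not tested.

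Over the genome 4595 genes had a member, 36.8% of the 12476 genes with any FL peak. Most had few: 2792 had 1, 308 had 5 or more and 24 had 10 or more. In 968 genes every FL peak was a member. Of the genes with a member 56.6% also had a Meckel-alone peak. The genes with the most member kb were mainly long ones. Rbms3, an RNA-binding protein gene of 1060 kb, had 25 members over 161 kb, with 279 kb of MC peaks. Lyplal1 had 15 over 120.0 kb, of which only 1 lay inside its 29.6 kb span. Celf2, a splicing regulator, had 12 over 104 kb and Grin2b, a glutamate receptor subunit, 13 over 101 kb, which was 95.2% of its FL kb. After Tbx5 came Rbfox1 (99.7 kb), Mgmt (96.8 kb), Tbx15, Tmtc1 (85.9 kb), Adcy2 (84.2 kb), Sema6d (83.6 kb) and Sdk1 (83 kb). St6galnac3, Plcb1, Trib2, Grip1, Thsd4, Shank2, Bbs9 and Piezo2 followed, between 79.1 and 73.5 kb. Among these 20 genes, Tbx5 and Tbx15 were the ones whose FL kb was all forelimb-alone.

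Members were narrow. Their median width was 6.07 kb, against 8.4 kb for shared FL peaks, and Meckel-alone peaks had 4.28 kb. Of the members 7.26% were wider than 10 kb, against 41.2% of shared peaks. Only 2 exceeded 40 kb, those of Tbx5 and Tbx15, against 1204 shared peaks. Members were 39.2% of the FL peaks between 5 and 6 kb, 8.95% of those between 10 and 15 kb and 0.396% of those between 20 and 40 kb. Their median total signal was 31971, against 56774 in shared peaks, and their median highest signal 14 against 19. The lowest total signal was 25799 in the whole FL list and 16925 in the MC list, so the 2 lists ended at different floors. Width and signal come from the list that defined the members and were not tested.

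**Figure D3:**
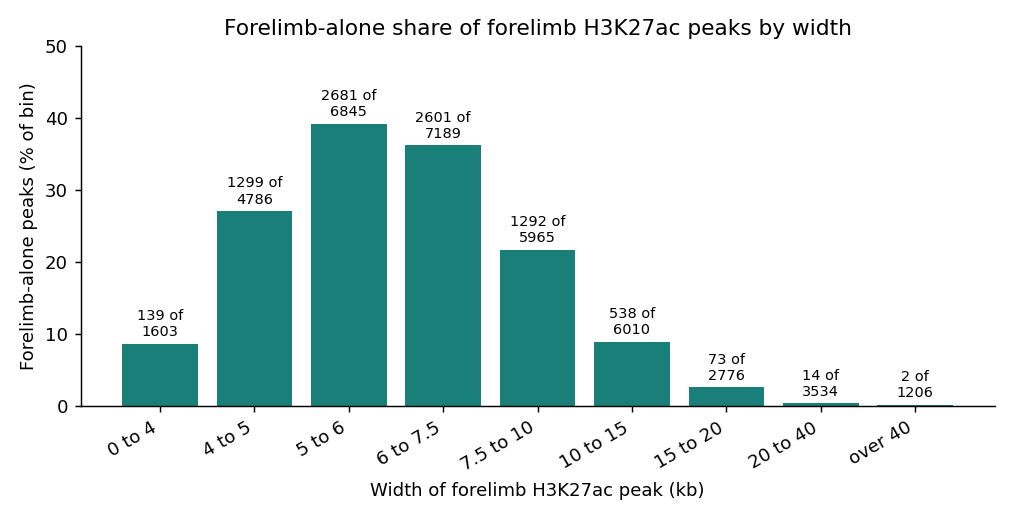
Forelimb-alone peaks as a percentage of all forelimb H3K27ac peaks in each width bin (kb), with the counts above the bars. The share was highest at 5 to 6 kb (39.2%, 2681 of 6845) and 0.166% over 40 kb (2 of 1206).

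Peaks just inside and just outside the 1 bp rule had close values. The median gap from a member to the nearest MC peak was 10.3 kb (quartiles 3.9 and 28.1 kb), and 30.5% of members had an MC peak within 5 kb. Just inside the border, 88 members lay within 100 bp of an MC peak, with a median width of 6.09 kb and a median total signal of 34092.5. Just outside it, 59 shared peaks met an MC peak by at most 100 bp, with 6.03 kb and 32822. Over all shared peaks a median of 80.1% of the width was under MC peaks.

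Members lay away from gene ends. Of the 8639, 922 (10.7%) were within 1 kb of an end of a protein-coding gene, against 37.1% of shared peaks, and Meckel-alone peaks had 17.1%. Inside a gene span lay 51.7% of members and 68.2% of shared peaks, and more than 100 kb from any gene lay 1250 members and 2023 shared peaks (6.47%). The share of FL peaks that were members ran between 16.9% on chromosome 17 and 25% on chromosome 14.

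Members also neighboured each other. The next FL peak after a member was a member in 33.5% of cases (2896 of 8635), where members were 21.6% of the FL list as a whole. For Meckel-alone peaks the values were 34.3% and 23.4%. Joining members at gaps of up to 25 kb gave 6916 chains, of which 5630 were single peaks, 971 pairs and 28 had 5 or more members. Shared FL or MC peaks between members did not break a chain. The longest had 9 members over 134 kb inside Tmtc1 (chr6:148231325-148364911), a mannosyltransferase gene. Chains of 7 lay inside Fstl4 and nearest to Rbms3 and Zcwpw2, up to 141 kb away. Chains of 6 lay inside Rbms3, inside Srgap2, inside Focad, at Tspear and Krtap10-4, and at Astn1 and Pappa2. Others of 6 met no protein-coding gene. They lay nearest to Lyplal1 and Slc30a10, up to 309 kb away, and to Rreb1, up to 112 kb away. Some of these chains had other peaks between their members. There were 1 shared FL and 2 MC peaks at Tmtc1, 3 and 4 at Fstl4 and 2 and 4 at Srgap2. Focad had 1 and 2, and Rreb1 1 and 1. The other chains of 6 or more had none. Of the 28, a chain of 5 over Tbx15 and Wars2 held the most member kb, 83.1, with 0 MC peaks between. The Meckel-alone peaks had 68 chains of 5 or more and a longest of 14. With the gap limit at 0.5 times that length there were 3 chains of 5 or more, and at 50 kb there were 113.

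ATAC peaks gave a measure that the rule had not used. An ATAC peak lay in 20.6, 26.2 and 16.2% of the 8639 members in the 3 FL libraries, against 15.6, 10.1 and 13.2% in the 3 MC libraries. Every FL library lay above every MC library. The means were 21 ± 5.02% in FL and 13 ± 2.73% in MC (SD, n = 3 each), 8.05 points apart (two-sided exact permutation p = 0.1, the smallest that 3 against 3 allow). Shared peaks held ATAC peaks far more often, and there the libraries of both tissues overlapped: 59.6 ± 5.21% in FL and 55.8 ± 1.59% in MC (SD, n = 3 each; exact permutation p = 0.3). The log2 ratio of the share in members over that in shared peaks of the same library was -1.53 ± 0.223 in FL and -2.13 ± 0.272 in MC (SD, n = 3 each), a difference of 0.60 (exact permutation p = 0.1). ATAC peaks covered 2.26 ± 0.417% of member bases in FL and 1.48 ± 0.247% in MC (SD, n = 3 each; exact permutation p = 0.1), against 7.57 ± 0.848% and 8.11 ± 0.4% of the bases of shared peaks (p = 0.4 by the same exact test). With the same number of peaks, 43205, taken from each ATAC list by score, the gap in the share of members was 4.19 points and that in bases 0.47 points, with the same exact permutation p of 0.1. Among the 1118 members whose total signal exceeded the median of all FL peaks, the gap in the share was 11.419 points with an exact permutation p of 0.2, so the libraries no longer separated fully.

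**Figure D4:**
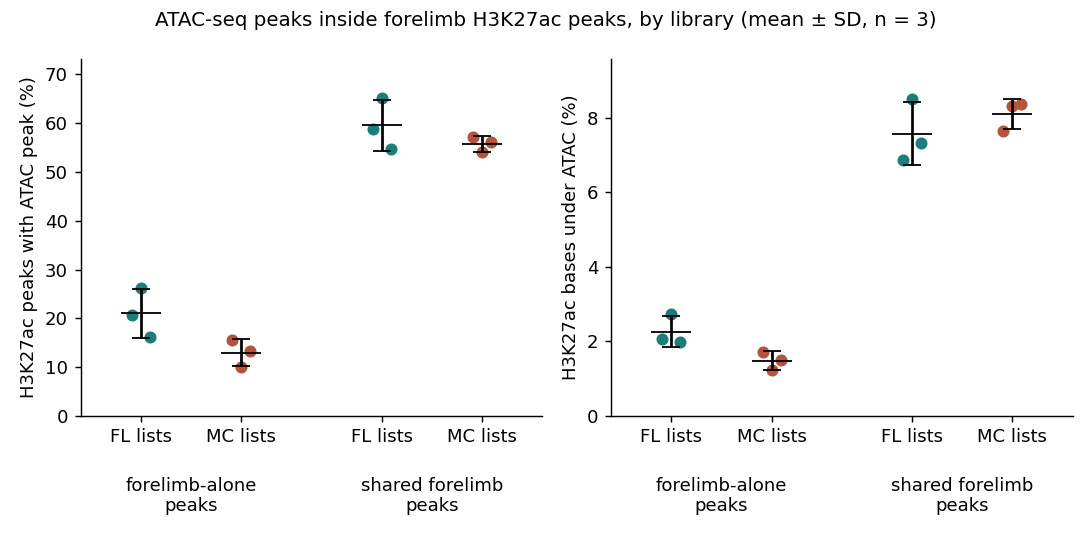
Percentage of forelimb-alone and of shared forelimb H3K27ac peaks that held an ATAC-seq peak (left) and percentage of their bases under ATAC-seq peaks (right), 1 point per library with mean ± SD, FL left of MC. In forelimb-alone peaks all 3 FL libraries (16.2 to 26.2%) lay above the 3 MC libraries (10.1 to 15.6%), and all 6 lay far below the 54 to 65.1% of shared peaks.

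Shared peaks of the same width were open more often. Among peaks of 5 to 6 kb, 15.6 to 24.7% of members held an FL ATAC peak and 9.92 to 14.2% an MC ATAC peak. In shared peaks of the same width the ranges were 40.7 to 49.3% in FL and 38.2 to 41.7% in MC. Most members, 5015 (58.1%), had no ATAC peak in any of the 6 lists, against 22.2% of shared peaks and 48% of Meckel-alone peaks. An ATAC peak in all 6 lists was found in 310 members (3.59%), against 40.5% of shared peaks. Any FL and no MC list had one in 1516 members (17.5%), against 9.65% of shared peaks and 11.5% of Meckel-alone peaks. Any MC and no FL list had one in 661 members (7.65%), against 6.46% of shared peaks and 7.63% of Meckel-alone peaks. The FL share was thus the larger in all 3 classes. Where an ATAC peak fell in a member, its median distance from the stretch of highest H3K27ac signal was 0.627, 0.761 and 0.644 kb in FL lists, against 0.907, 0.508 and 0.63 kb in MC lists.

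A subset was open in every FL library and in no MC library. It had 209 members (2.42%), against 399 shared peaks (1.28%) and 126 Meckel-alone peaks (1.13%). The opposite pattern had 14 members (0.162%), against 114 shared peaks (0.365%) and 49 Meckel-alone peaks (0.44%), so peaks open in FL alone outnumbered those open in MC alone in every class. Of the 209, 15 lay within 1 kb of a gene end, 80 inside a gene and 54 over 100 kb from any gene. They were spread over 198 genes, and 1 belonged to a gene of the limb and Hox lists, to which 54 of all 8639 members belonged. Adgrl2, Csrnp3, Ehbp1, Cd109, Col24a1, Has2, Pappa2, Mctp2, Spag17, Trpm3 and Grin2b had 2 each.

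The strongest of these by H3K27ac signal was a 17.6 kb peak at the end of Kl (chr5:150976141-150993785), the gene of Klotho, a co-receptor of the hormone Fgf23, with 945, 984 and 740 bp of ATAC peaks in FL, against 0 bp in MC. A 15.6 kb peak 43.9 kb from Col24a1 (chr3:145240800-145256366), a fibrillar collagen gene of bone, held 1502, 1684 and 659 bp in FL. A 17.9 kb peak 62.1 kb from Grin2b (chr6:136226721-136244627) held 362, 1075 and 780 bp. A peak inside Pde5a (chr3:122811858-122824368), a cyclic GMP phosphodiesterase gene, held 961, 1454 and 873 bp. All of these had 0 bp in every MC library, as the choice of members fixed. The other 6 of the 10 strongest were nearest to Tshz1, Rgma, Mctp2, Ice1, 1500009L16Rik and Lmo7, with 300 to 1491 bp in FL libraries.

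The same libraries were also compared region by region. Of the 8639 members 2626 passed the filter on mean cover (30.4%). By limma 199 of these were higher in FL (7.58%) and 13 higher in MC (0.495%) at an adjusted p under 0.05, where over all 28674 regions tested 2.32% were called higher in FL and 0.53% higher in MC. Each of the 199 was listed at 0 in all 3 MC lists, and each of the 13 at 0 in all 3 FL lists, so no fold is given. Each of them passed the filter through the tissue where it was high, so nothing is read from these counts about the members. In 327 members every FL list exceeded every MC list and in 49 the reverse, against 6.75% and 6.69% of all regions. The count of calls was 0 with limma's trend option and 32 with a pseudocount of 0.5 kb, and leaving out FL list 1 or FL list 3 gave 320 and 402 calls and 596 and 687 members without overlap.

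The calls with the largest difference were chosen by size. Those higher in FL lay at or nearest to Zfp516, Thbs1, Lama2, Ccdc68, Lmo2, Trpm3, Kcnn2, Col24a1, Arhgap21 and Has2. The member inside Trpm3 (chr19:22444264-22449203) was the one that held the promoter window printed above. Has2 makes hyaluronan, a main polysaccharide of cartilage matrix, Thbs1 encodes thrombospondin and Lama2 a laminin chain. Those higher in MC lay at or nearest to Flt4, Fam3c, Lhcgr, Grik3, Dpp6, Ptpn4, Dcst2, Piwil4, Stim2 and Pip4k2a.

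Promoters inside members were poor in CpG. The 804 windows, of 728 genes, held a median of 4 CpG, against 17 in the 15641 windows inside shared peaks. Windows in Meckel-alone peaks held 14 and windows in no peak 3. A count of 10 or more CpG was found in 18.7% of member windows, against 65.9% in shared peaks, 63.9% in Meckel-alone peaks and 18.1% outside any peak. The letters GGGCGG, a CpG-holding box searched on both strands, occurred in 18.4% of member windows, against 53.8% of windows in shared peaks and 35.9% of all windows. TATAAA on either strand occurred in 13.9% of member windows, against 7.44% in shared peaks and 13.7% of all windows. The Hox windows were unlike most: 8 of the 10 in members held 10 or more CpG, which the Hoxd10 and Hoxa10 sequences above show, and Hoxa9 with 4 was 1 of the others.

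Member promoters were seldom open in either tissue. An ATAC peak lay on 18, 22.1 and 18.2% of the 804 windows in the FL libraries, against 14.9, 17.4 and 18.8% in the MC libraries. The groups overlapped, at 19.4 ± 2.33% in FL and 17 ± 1.95% in MC (n = 3 each, ± SD); the two-sided exact permutation p was 0.4. Of the 150 member windows with 10 or more CpG, 58.7 to 68.7% were open in FL and 46.7 to 62.7% in MC, and of those with fewer 8.1 to 11.5% and 7.65 to 8.72%. Besides Hox genes, the lists had Alpl, Lmx1b, Tbx18, Chrna1, Wnt5b and Wnt10b with a window in a member. Among these the Tbx18 window had an ATAC peak in all 6 lists and the Wnt5b window in 3 of 3 FL lists and 2 of 3 MC lists.

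**Figure D5:**
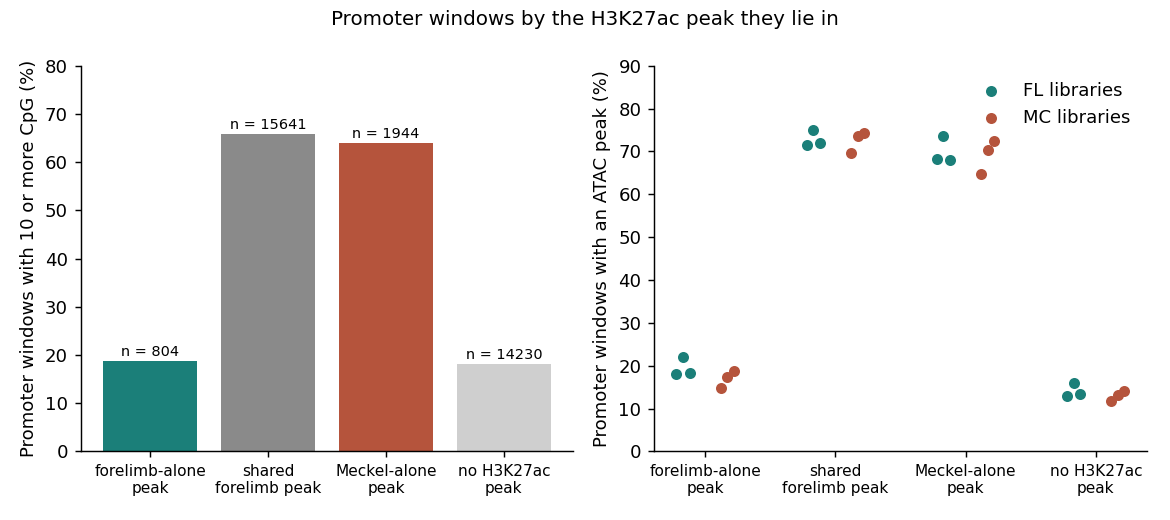
RefSeq promoter windows of 300 bases by the H3K27ac peak they lie in: percentage with 10 or more CpG (left) and percentage with an ATAC-seq peak in each library (right, FL left of MC). Windows in forelimb-alone peaks (18.7% CpG-rich, 14.9 to 22.1% open) lie near windows in no peak and far below those in shared and Meckel-alone peaks.

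In the E12.5 mandible lists 15.1 and 21.6% of members held an ATAC peak, against 16.2 to 26.2% in the FL lists and 10.1 to 15.6% in the MC lists. The first value lay below every FL list and the second above every MC list. The log2 ratio of the share in members over that in shared peaks was -1.83 and -1.487 in the E12.5 lists. It was -1.512, -1.313 and -1.759 in the FL lists and -1.876, -2.417 and -2.09 in the MC lists. Both E12.5 ratios thus lay above every MC ratio. This was not tested. Of the 209 members open in FL libraries and in no MC library, 128 held no E12.5 peak and 10 held one in both E12.5 lists.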

How the data were processed

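H3K27ac CUT&Tag and ATAC-seq peak lists of mouse FL, MC and E12.5 mandible were used. The tools named in the submitters' processing notes are Trim Galore, Bowtie2, SAMtools and the peak callers SEACR (H3K27ac) and Genrich (ATAC-seq), with mm10 as build; versions, thresholds and how the combined lists were made are not given in the sources used here. The deposited values are the authors' signal per peak, a total and a highest signal for H3K27ac and a signal value for ATAC-seq, and were used only to rank or describe peaks. Depth is unknown. Hi-C, 4C and PRS-/- samples were not analysed here.

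Peaks were compared by an overlap of 1 bp. A member belonged to the smallest of 21631 protein-coding gene spans holding its midpoint, else to the nearest span within 1 Mb. ATAC kb per region was fitted with limma 3.58.1 (R 4.3.3) on log2(kb + 0.1), on regions of the union of both combined lists with a mean of 0.1 kb or more, with Benjamini-Hochberg adjustment over all regions; the step was checked on simulated data. Other tests were exact permutations of libraries (Python 3.11.15, scipy 1.17.1). Named genes are the top 20 by member kb, the top 10 chains, widths, signals and FL-open members, up to 6 per list, and the largest limma differences. Members and lists were chosen with earlier results of these data known.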

Additional observations from a re-analysis of the deposited data

Results flagged for a closer look

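Peaks called on single FL H3K27ac libraries lay in a mean of 12.8% of the forelimb-alone peaks (SD 0.153, n = 3), against 15.3% (SD 1.15, n = 3) for single MC libraries, although the combined MC list has no peak there. These single-library lists were not part of the tested comparisons. In shared peaks the means were 19.7% for FL lists and 21.1% for MC lists. The part of the combining step in this was not tested. The second E12.5 mandible ATAC list had a peak in 21.6% of forelimb-alone peaks, above all 3 MC lists at E14.5 (10.1 to 15.6%), and the other E12.5 list had one in 15.1%. The E12.5 lists were longer (74706 and 70042 peaks) than the MC lists (43205 to 54192 peaks), and the part of list length was not tested. Relative to shared peaks of the same list, the E12.5 log2 ratios were -1.83 and -1.487, against -2.417 to -1.876 in MC.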

How the results depend on the processing

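All 35 alternatives to the shares of members and bases and to the ratio kept the FL mean above the MC mean. Among members above the median total signal, the share of members had a gap of 11.419 points and an exact permutation p of 0.2, since the libraries of the 2 tissues overlapped. With 1 list left out the gap ran from 5.448 to 10.46 points for members (exact permutation p = 0.2, the smallest those sizes allow), from 0.537 to 0.911 points for bases and from 0.455 to 0.725 for the log2 ratio. Counts moved more. Members numbered 1118 when their total signal had to exceed the median of all FL peaks. Chains of 5 or more numbered 3 with the gap limit at 0.5 times 25 kb and 113 with 50 kb. Genes with a member numbered 2710 when the midpoint had to lie inside the gene. The 212 limma calls became 32 with a pseudocount of 0.5 kb, 37 with a mean cover of 0.5 kb or more, 44 among members above the median signal (84 there did not overlap, of 376 in all members) and 0 with limma trend. With 1 list left out there were 232 to 402 calls and 512 to 687 members without overlap. With the replicate number as a block, limma made 0 calls, against 331 members at an unadjusted p under 0.05, and the 3 shares and ratios had an exact permutation p of 0.25, the smallest 3 pairs allow. The numbers do not pair the libraries by the labels, and same-numbered FL and MC libraries had correlations of 0.045, 0.037 and 0.056 in their deviations, although each correlated best with its own number. A block could not be formed for the count of members without overlap, and the setting on the part of an ATAC peak inside a member has no meaning for bases. No alternative reversed a direction. Depth is unknown, the combined lists have no replicates, and 3 libraries against 3 cannot give an exact p under 0.1. The causes of these shifts were not tested.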
